A study of Mus musculus with 2 samples.

Results

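The taste transduction core is the set of 7 genes that carries a signal from a G protein to the cation channel of taste-type chemosensory cells: Gnat3, Gnb3, Gng13, Plcb2, Itpr2, Itpr3 and Trpm5. The genes were chosen by symbol, and all 7 were found among the 17134 genes of the deposited table. In taste cells, a receptor activates a G protein whose alpha subunit is gustducin, encoded by Gnat3. The released beta and gamma subunits activate phospholipase C beta 2, which makes inositol trisphosphate (IP3). IP3 opens receptor channels on the endoplasmic reticulum, and the released calcium opens Trpm5, which lets sodium in and depolarises the cell. Intestinal tuft cells, rare chemosensory cells of the gut epithelium, use a cascade of this kind to report luminal signals such as succinate.

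Tuft cells were sorted by flow cytometry from the small intestine of naive mice as cells with the surface proteins EpCAM and SiglecF. The Spib_KO library was made from animals of genotype Spibfl/flVillin-cre, whose floxed Spib is deleted by Cre, and the WT library from animals of genotype Spib+Villin-cre. Cre is thus carried by both genotypes, and the Villin promoter drives it in the whole intestinal epithelium, not in tuft cells alone. There was 1 library per genotype, so no test between genotypes was possible and every difference describes these 2 libraries. The labels state no age, sex or number of mice per library and do not say which exons are floxed.

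The libraries held 17228665 reads assigned to genes in Spib_KO and 17925421 in WT. Spib, which encodes an ETS family transcription factor, had 48 reads in Spib_KO and 6266 in WT, 0.81% of the WT level (95% interval 0.59% to 1.07%). Pou2f3, the transcription factor that tuft cells require, had normalised read counts (CPM, scaled to library size) of 287 in Spib_KO and 256 in WT. The sort genes Siglecf and Epcam had log2 ratios of 0.14 and -0.06. All ratios are Spib_KO over WT, and their 95% intervals cover counting error only. Because the cells were sequenced in bulk, fewer cells that express a gene and less RNA of it per cell cannot be told apart.

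The steps of the cascade did not share a ratio. Of the genes of the middle steps, Plcb2 was 2.12-fold lower and Itpr2 2.82-fold lower in Spib_KO, while Itpr3 differed less. The channel gene Trpm5 and the alpha subunit gene Gnat3 were at 67.9% and 60.3% of the WT level, and Itpr3 was at 74.8%, all short of the rule for a call. Gng13 went the other way, at 2.10 times the WT level, with an interval that reached just below 2-fold. Gnb3 was close to absent in both libraries.

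A gene counted as measured when it reached 5 CPM and 30 reads in a library. A call, higher or lower, needed the whole counting interval to lie at or beyond 2-fold, a log2 ratio of 1. Of the 7 members 6 were measured, 2 were called lower and 0 higher. Over all 10707 measured genes 2.18% were called lower and 2.33% higher. The median log2 ratio was -0.64 over the 6 measured members and 0.01 over all measured genes, whose quartiles were -0.26 and 0.28. Of the 6 ratios 5 were below 0. Together the members took 0.288% of the reads in Spib_KO and 0.482% in WT. Trpm5 alone accounted for 68.0% of those reads in Spib_KO and 60.3% in WT.

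**Figure D1:**
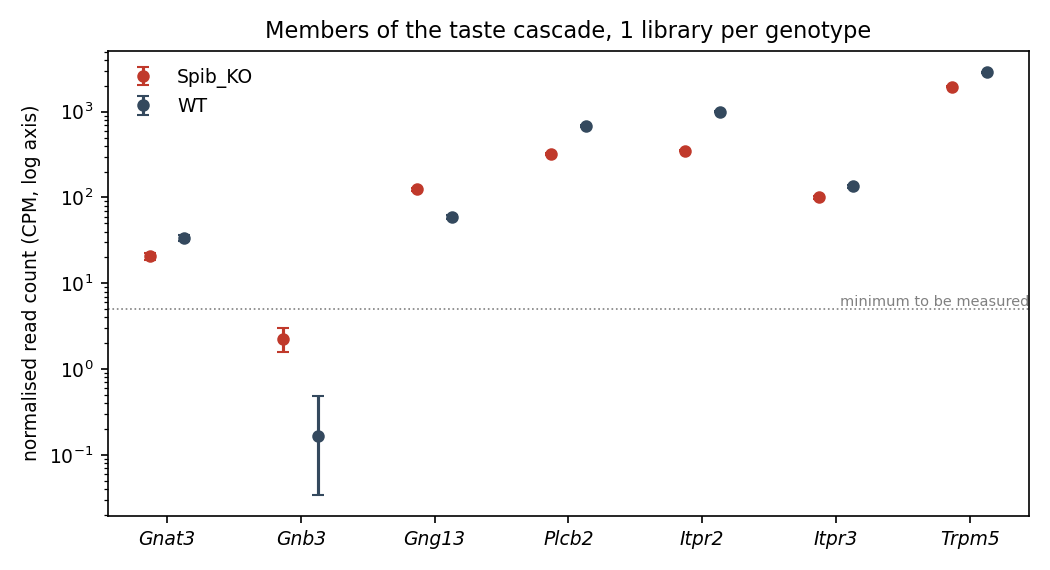
Normalised read count (CPM, log axis) of each member in the Spib_KO library and the WT library, with exact 95% Poisson intervals that are mostly smaller than the points. Only Gng13 and Gnb3 lie higher in Spib_KO, and both values of Gnb3 lie under the dotted line at 5 CPM.

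The promoter windows of 4 members are shown because the deleted gene encodes an ETS factor and these members span the range of ratios: Plcb2 and Itpr2 were called lower, Itpr3 lay between, and Gng13 was above 0. Each window runs from 250 bases before to 50 bases after an annotated start, read 5′ to 3′ on the strand of the gene, from RefSeq on GRCm38.p6. Capitals mark matches to GGAAGT, the GGAA core of an ETS site with flanking bases on its 3′ side, or to the octamer ATGCAAAT, the site of POU factors such as Pou2f3, on either strand. The windows are chr2:118728389-118728688 (minus strand) for Plcb2, chr6:146502174-146502473 (minus strand) for Itpr2, chr17:27057054-27057353 (plus strand) for Itpr3 and chr17:25716922-25717221 (plus strand) for Gng13. Gng13 has another window at a second annotated start, chr17:25717278-25717577, with a G and C share of 72% and 34 CG pairs. It is not printed, and which start was used in these cells was not measured.
Plcb2: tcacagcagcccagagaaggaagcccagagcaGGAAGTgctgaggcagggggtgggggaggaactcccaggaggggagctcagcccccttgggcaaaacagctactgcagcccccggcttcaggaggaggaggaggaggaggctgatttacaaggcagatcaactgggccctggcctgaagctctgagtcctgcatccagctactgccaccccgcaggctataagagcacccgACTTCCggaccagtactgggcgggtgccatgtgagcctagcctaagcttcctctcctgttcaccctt
Itpr2: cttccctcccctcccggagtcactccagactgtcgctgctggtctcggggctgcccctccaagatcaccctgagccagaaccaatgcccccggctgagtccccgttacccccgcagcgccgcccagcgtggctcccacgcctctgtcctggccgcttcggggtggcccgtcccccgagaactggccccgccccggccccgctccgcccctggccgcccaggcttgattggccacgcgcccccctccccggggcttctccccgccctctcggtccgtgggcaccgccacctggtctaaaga
Itpr3: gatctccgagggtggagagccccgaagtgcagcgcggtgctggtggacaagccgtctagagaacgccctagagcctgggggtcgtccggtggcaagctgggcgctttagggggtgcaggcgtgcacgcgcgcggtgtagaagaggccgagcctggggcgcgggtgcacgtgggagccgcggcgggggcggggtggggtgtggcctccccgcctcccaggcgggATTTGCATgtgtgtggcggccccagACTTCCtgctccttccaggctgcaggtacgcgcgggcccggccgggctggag
Gng13: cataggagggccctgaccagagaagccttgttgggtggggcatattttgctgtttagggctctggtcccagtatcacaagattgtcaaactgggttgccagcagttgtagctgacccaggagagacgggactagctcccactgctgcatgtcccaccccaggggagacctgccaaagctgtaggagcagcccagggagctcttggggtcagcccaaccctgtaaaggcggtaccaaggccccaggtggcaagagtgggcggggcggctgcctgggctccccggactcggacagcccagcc

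The table of promoters matched 6 of the 7 members, with 7 windows, since Gng13 has 2. GGAAGT was found in the windows of Plcb2 and Itpr3, so in 2 of 7 member windows, against 23.8% of all 32851 windows. Plcb2 held 2 matches, which begin 218 and 17 bases before the start. Itpr3 held 1, which begins 2 bases before the start and runs across it. The longer form GAGGAAGT, a PU-box type site that contains GGAAGT, was in 3.20% of all windows and in 0 of the 7. The octamer was in 1.74% of all windows and, of the members, in Itpr3 alone. The windows of Itpr2, Gng13, Gnat3 and Trpm5 held none of the 3 motifs. The windows also differed in base composition: the G and C share was 61.7% for Plcb2 and 73.3% for Itpr2, with 5 and 26 CG pairs. A match describes letters in a window and not binding.

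Gnat3 encodes gustducin, the taste alpha subunit (gene 242851, chromosome 5, 17962570 to 18019668, GRCm38.p6). It had 353 reads in Spib_KO, or 20.6 CPM (95% interval 18.5 to 22.8), and 614 reads in WT, or 34.1 CPM (31.5 to 36.9). The Poisson intervals do not overlap, and the log2 ratio was -0.73 (-0.92 to -0.54), so the whole interval lay within 2-fold. Per length, Gnat3 was a minor alpha subunit in both libraries. Among alpha subunits of the Gi class it made up 9.01% of the summed TPM, the deposited transcript level per length, in Spib_KO and 15.6% in WT. Gnai2, a widely expressed inhibitory alpha subunit, made up 67.7% and 65.2%.

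Of 15 other alpha subunit genes listed, 7 were measured, 1 was called higher and 0 lower, with a median log2 ratio of 0.21. Over all measured genes 2.33% were called higher and 2.18% lower. The called gene was Gnai1, another inhibitory alpha subunit gene. It had 342 reads in Spib_KO and 36 in WT, a log2 ratio of 3.30 (2.82 to 3.85). Its level stayed low per length, at 8.36 TPM in Spib_KO and 0.85 TPM in WT, below that of Gnat3 in each library.

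Gnb3 encodes a beta subunit that pairs with gustducin in taste cells (gene 14695, chromosome 6, 124834240 to 124840275). It had 38 reads in Spib_KO, or 2.21 CPM (1.57 to 3.04), and 3 reads in WT, or 0.17 CPM (0.03 to 0.49). The log2 ratio was 3.52 (2.08 to 6.07), but Gnb3 did not reach the minimum to be measured and is not counted as called. Per length it was the lowest of the 7 members in each library, at 1.69 TPM in Spib_KO and 0.13 TPM in WT. It made up 0.42% and 0.05% of the summed TPM of the 5 beta subunit genes. Nearly all beta subunit transcript came from Gnb1 and Gnb2, which are expressed in most tissues. Gnb1 had 276.6 and 186 TPM, and Gnb2 118 and 93.2 TPM, in Spib_KO and WT. Neither was called, with log2 ratios of 0.59 (0.55 to 0.63) and 0.36 (0.27 to 0.45). They were the only 2 measured of 4 other beta subunit genes.

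Gng13 encodes the gamma subunit that couples gustducin to phospholipase C (gene 64337, chromosome 17, 25717172 to 25719102). It had 2150 reads in Spib_KO, or 125 CPM (120 to 131), and 1073 reads in WT, or 59.6 CPM (56.1 to 63.3). The log2 ratio was 1.07 (0.96 to 1.18). As a point estimate it passed 2-fold, as did 3.97% of measured genes on the higher side and 3.91% on the lower, and it missed the call by its interval. With the bound set at 1.5-fold Gng13 was called higher, where 5.59% of measured genes were higher and 5.52% lower. Gng13 shares 399 exonic bases with Chtf18 on the opposite strand, and reads without strand do not separate them. All reads counted to Chtf18 came to 316 in Spib_KO and 452 in WT, fewer than those of Gng13 and with a log2 ratio of -0.45. Reads of Chtf18 that were counted to Gng13 are not in that total, and their part in the value of Gng13 was not tested.

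Per length Gng13 was the highest member in Spib_KO, at 764 TPM against 386 TPM in WT. The length implied by its deposited values was 206 bases in Spib_KO and 195 bases in WT, shorter than its GENCODE M21 transcripts of 719 and 347 bases, so its TPM rests on a small divisor. Among gamma subunits it was second to Gng5, a ubiquitous one, in both libraries, and it made up 37.2% of the summed TPM of gamma subunits in Spib_KO and 27.3% in WT. Since Gnat3 went the other way, Gng13 had 28.8 times the TPM of Gnat3 in Spib_KO and 8.54 times in WT. None of the 5 measured other gamma subunit genes was called, and their median log2 ratio was 0.36. The nearest to the threshold was Gngt2, known from cone photoreceptors, with 737 reads in Spib_KO and 388 in WT and a log2 ratio of 0.99 (0.81 to 1.18). It shares 234 exonic bases with Abi3 on the opposite strand, whose ratio was -0.10.

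Plcb2 encodes phospholipase C beta 2, which cuts a membrane phosphoinositide into IP3 and diacylglycerol (gene 18796, chromosome 2, 118705003 to 118728661). It had 5517 reads in Spib_KO, or 321 CPM (313 to 330), and 12281 reads in WT, or 682 CPM (670 to 695). Plcb2 fell by 1.09 on the log2 scale (interval -1.13 to -1.04), to 47.1% of the WT level. That is close to the 2-fold bound, so the call from read counts is a narrow one. The deposited TPM gave a larger difference, 87.5 TPM in Spib_KO against 257 TPM in WT, 2.94-fold lower and a log2 ratio of -1.55. By TPM the level was 34.1% of WT.

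The gap between counts and TPM for Plcb2 is that between the lengths by which its reads were divided in each library. Read count and FPKM (fragments per kilobase, scaled to library size) together imply a length of 4608 bases in Spib_KO and 3351 bases in WT, 1.38 times as long in Spib_KO. A shift of this size was rare. Of 8400 genes with 200 reads or more in each library, 92.2% had lengths within 0.1 of each other on the log2 scale, and 36 genes (0.43%) were as far apart as Plcb2 or further. The log2 ratio of length was 0.46 for Plcb2 and 0.01 at the median of these genes, 18.3 bases. Annotation lists Plcb2 transcripts of unequal length: in GENCODE M21 the coding ones have 5145 and 4518 bases, and 4 with retained introns have 708 to 2456 bases. The WT value lies between these classes. An implied length can fall short of the annotated ones, as it did for Gng13, so this placing assigns no class of transcript. The deposited table gives no value per transcript, so which transcripts the reads came from was not measured. In either unit Plcb2 was lower in Spib_KO, but how far depends on the unit.

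**Figure D2:**
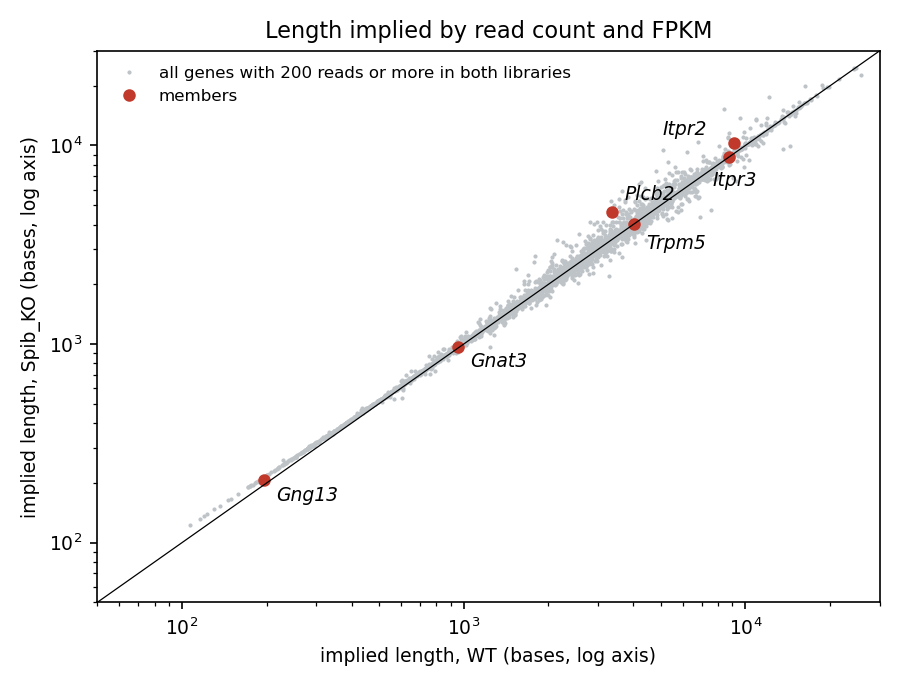
Length in bases implied by read count and FPKM in Spib_KO (vertical, log axis) and WT (horizontal, log axis) for 8400 genes, with the 6 measured members in red. Plcb2 lies furthest from the line of equal length among the members, at 4608 bases in Spib_KO and 3351 in WT, and Itpr2 lies slightly above it.

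Plcb3, the other beta-type phospholipase with sizeable expression and a partner of Gq-class alpha subunits, had 82.7 TPM in Spib_KO and 93.9 TPM in WT, a log2 ratio of counts of -0.17 (-0.22 to -0.11). By TPM Plcb2 made up 51.3% of the sum of the 4 beta-type genes in Spib_KO and 73.2% in WT. These shares rest in part on the unequal implied lengths of Plcb2, where those of Plcb3 were 4043 bases in Spib_KO and 4019 in WT. By reads Plcb2 had 5517 against 4574 for Plcb3 in Spib_KO, and 12281 against 5380 in WT. None of 7 measured other phospholipase C genes was called, and their median log2 ratio was -0.08. Plcg2, a phospholipase C activated by tyrosine kinases, was the most abundant of them at 259 TPM in Spib_KO and 273 TPM in WT. Its level per length was above that of Plcb2 in each library.

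Plcb2 is also expressed by blood cells, and the leukocyte markers were low in both libraries. Of the T cell, B cell and myeloid markers in the table, all but Adgre1 were lower in Spib_KO. The 9 T cell markers in the table summed to 5.77 CPM in Spib_KO and 54.5 CPM in WT, and each was lower in Spib_KO. The 4 of them that counted as measured passed the minimum through WT alone, so a count of their calls says nothing more. The 7 myeloid markers summed to 21.4 CPM in Spib_KO and 30.6 CPM in WT, with 6 lower and 1 higher in Spib_KO. The higher one, Adgre1, the macrophage marker F4/80, was the most abundant of them in Spib_KO, with 230 reads in Spib_KO and 135 in WT and a log2 ratio of 0.83 (0.52 to 1.15), short of a call. The other 6 summed to 7.98 CPM in Spib_KO and 23.1 CPM in WT, and Csf1r and Tyrobp among them had 0 reads in Spib_KO and 5 and 18 in WT. The 4 B cell markers summed to 2.27 and 5.61 CPM, with 0 measured, and Cd79a, like the T cell marker Cd3d, had 0 reads in Spib_KO. Plcb2 itself was 361 CPM lower in Spib_KO, and the marker sums do not measure how much Plcb2 these cells carry. The part of these cells in the result was not tested.

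Itpr2 and Itpr3 encode type 2 and type 3 IP3 receptors, the calcium release channels of the endoplasmic reticulum. Type 3 is the one known from taste cells. Itpr2 (gene 16439, chromosome 6, 146108299 to 146502258) had the lowest ratio of the 7 members. It had 6053 reads in Spib_KO, or 353 CPM (344 to 362), and 17903 reads in WT, or 995 CPM (980.3 to 1010). It fell 2.82-fold (interval 2.74 to 2.90), to 35.5% of the WT level. By TPM it had 43.1 in Spib_KO and 138 in WT, 3.20-fold lower. Here too the implied length was greater in Spib_KO, 10261 bases against 9088 in WT, a shift that 3.37% of the 8400 genes matched or passed. GENCODE M21 lists 11 transcripts of Itpr2, of which the longest coding ones have 11679 and 8331 bases.

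Itpr3 (gene 16440, chromosome 17, 27057002 to 27122223) had 1725 reads in Spib_KO, or 101 CPM (95.8 to 105), and 2419 reads in WT, or 134 CPM (129 to 140). The log2 ratio was -0.42 (-0.51 to -0.33), and TPM gave -0.43, with implied lengths of 8790 and 8774 bases. Per length Itpr2 was the main IP3 receptor in each library, with 3.01 times the TPM of Itpr3 in Spib_KO and 7.15 times in WT. Its share of the summed TPM of the 3 receptor genes was 73.4% in Spib_KO and 86.8% in WT, and that of Itpr3 was 24.4% and 12.1%. These TPM proportions rest in part on the unequal implied lengths of Itpr2. The summed level of the 3 genes was 58.8 TPM in Spib_KO and 159 TPM in WT. Itpr1, which encodes the type 1 receptor known from neurons, was at 1.27 and 1.68 TPM.

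**Figure D3:**
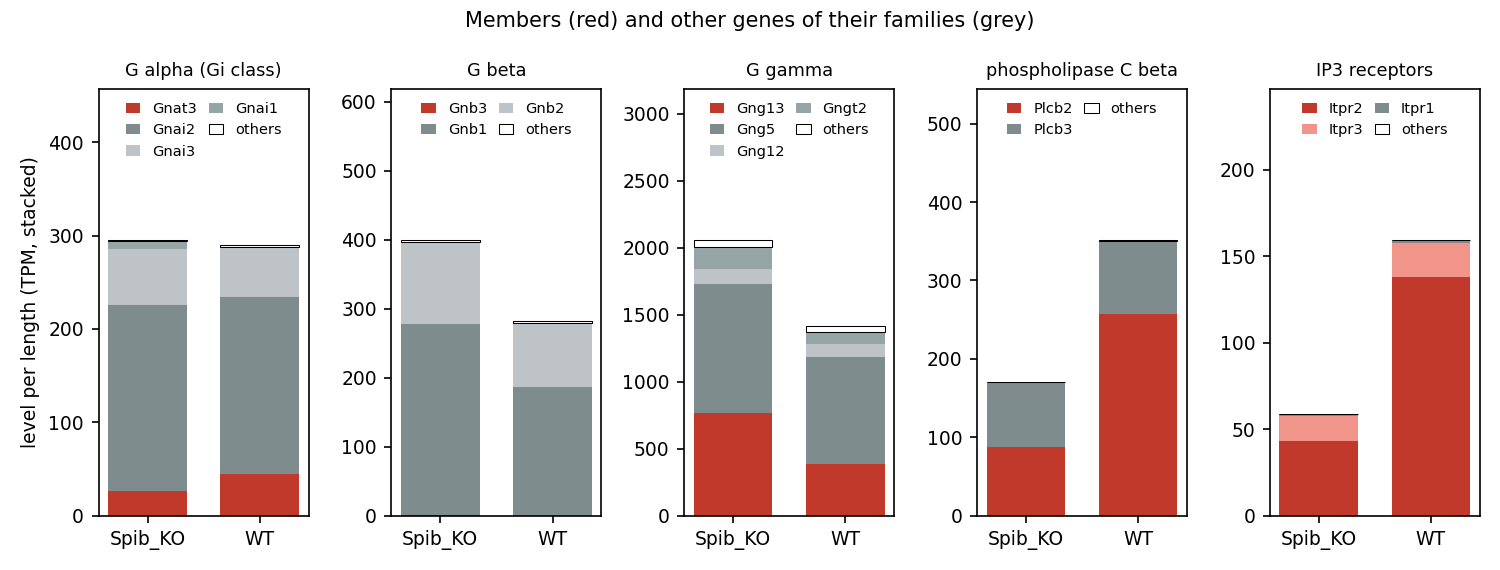
Stacked TPM of the members (red) and other genes of their families (grey, white for the rest) in Spib_KO and WT, with a separate vertical scale for each family. Plcb2 and Itpr2 make up less of their families in Spib_KO, Gng13 makes up more, and Gnb3 is too low to be seen. The TPM shares of Plcb2 and Itpr2 rest in part on their unequal implied lengths.

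Trpm5 encodes the calcium-activated cation channel at the end of the cascade (gene 56843, chromosome 7, 143071529 to 143094642). It had 33700 reads in Spib_KO, or 1964 CPM (1943 to 1985), and 52031 reads in WT, or 2891 CPM (2866 to 2916). The log2 ratio was -0.56 (-0.58 to -0.54), 1.47-fold lower and short of the 2-fold rule. TPM gave the same ratio, with 615 TPM in Spib_KO and 908 TPM in WT and implied lengths of 4003 and 4018 bases. Trpm5 shares 220 exonic bases with Tssc4 on the opposite strand, which had 2251 and 2255 reads. Trpm4, the closely related channel that is also opened by calcium, was far lower, at 13.7 TPM in Spib_KO and 18.4 TPM in WT. Trpm5 made up 97.8% and 98.0% of the sum of the pair.

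Of 22 other TRP channel genes listed, 3 were measured and 1 was called higher, against 2.33% of all measured genes, with a median log2 ratio of -0.25. The called gene was Trpm6, a channel for magnesium, which passed the minimum through Spib_KO alone. It had 86 reads in Spib_KO and 28 in WT and a log2 ratio of 1.67 (1.06 to 2.36). Its TPM differed less, 0.98 in Spib_KO against 0.58 in WT, a log2 ratio of 0.76, since its implied length was 6400 bases in Spib_KO and 3396 in WT.

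By level per length the members kept nearly the same order in both libraries. In Spib_KO it ran Gng13, Trpm5, Plcb2, Itpr2, Gnat3, Itpr3 and Gnb3, and in WT only Gng13 and Trpm5 changed places. The distances between them differed. Trpm5 had 7.03 times the TPM of Plcb2 in Spib_KO and 3.53 times in WT, and 14.3 times that of Itpr2 in Spib_KO and 6.57 times in WT. By TPM Plcb2 and Itpr2 kept close to the same proportion to each other, 2.03 in Spib_KO and 1.86 in WT. By read counts they did not, with log2 ratios of -1.09 (-1.13 to -1.04) for Plcb2 and -1.50 (-1.54 to -1.45) for Itpr2. The TPM proportions that involve Plcb2 or Itpr2 rest in part on the unequal implied lengths of these genes in the libraries. By deposited TPM, with a difference of at least 1 in log2(TPM + 1), Plcb2 and Itpr2 were again the called members, where 2.81% of 9106 genes were lower and 2.23% higher. The same rule on FPKM called these 2 members as well, where 2.65% of 8541 genes were lower and 1.93% higher. Gng13 was not called by TPM either, at 1.98 times the WT level.

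**Figure D4:**
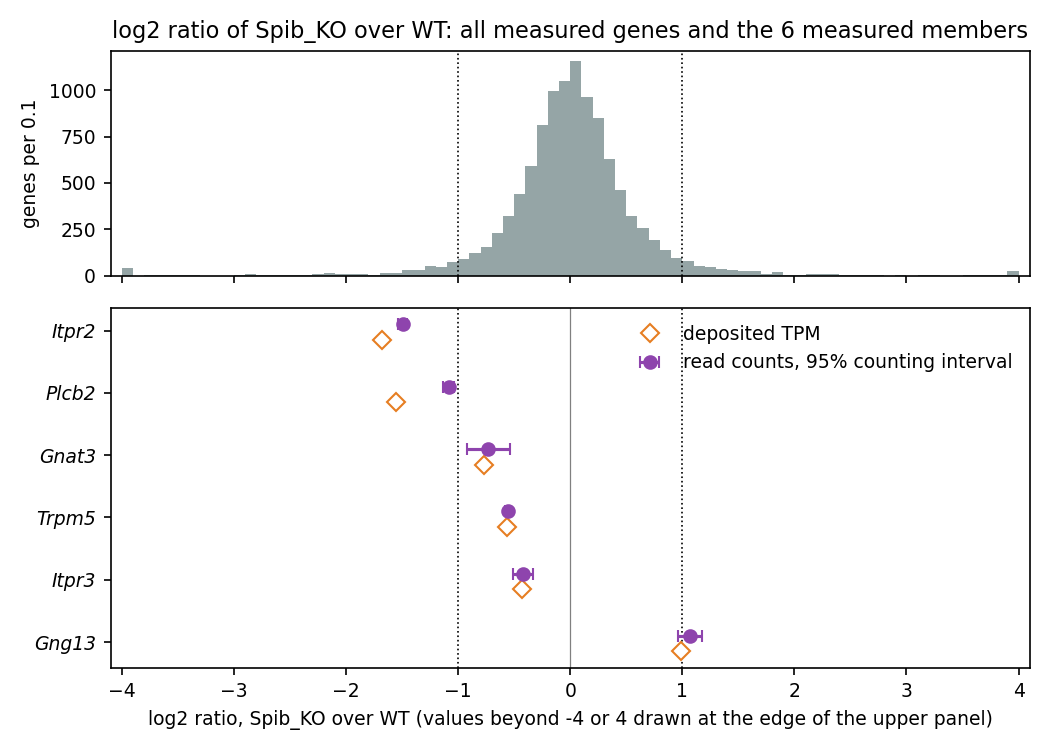
Log2 ratio of Spib_KO over WT for all 10707 measured genes (upper panel, genes per bin of 0.1) and for the 6 measured members (lower panel, counts with 95% counting interval and deposited TPM). The dotted lines mark 2-fold: Itpr2 and Plcb2 lie past the lower line, Plcb2 moves further out by TPM, and Gng13 sits on the upper line.

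Around the core, 152 other genes of the receptors, G proteins, enzymes and outputs of the cascade were listed by role. Of these 73 were measured, 6 were called higher and 6 lower, and the median log2 ratio was 0.08. Over all measured genes 2.33% were called higher and 2.18% lower, shares that stand beside each list below. Of the called genes Gprc5a, Pde4d and Atp2b2 passed the minimum in both libraries. The rest passed it only through the library where they were higher, so their calls say nothing beyond their levels.

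Of 22 receptor genes listed, 7 were measured, 2 were higher and 1 lower, with a median of 0.33. Vmn2r26, which encodes a receptor of the vomeronasal type, had 0 reads in Spib_KO and 251 in WT. Its WT level was 79.8 times a floor of 3 reads in the Spib_KO library, and the interval of its log2 ratio ended at -6.01. Tas1r3, the subunit shared by sweet and umami taste receptors, was higher with 236 and 67 reads in Spib_KO and WT, though it shares 36 exonic bases with Dvl1 on the opposite strand, which had 3887 and 4117 reads. Gprc5a, an orphan receptor gene, was higher with 503 and 178 reads, a log2 ratio of 1.56 (1.32 to 1.82).

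Of 27 listed regulators, 21 were measured, 4 were lower and none was higher, and the median was 0.06. The shares over all measured genes were 2.18% lower and 2.33% higher. They include regulators of G protein signalling (RGS), cyclic nucleotide enzymes, and kinases that act on IP3, diacylglycerol or downstream of it. Rgs14, an RGS protein that acts on Gi-class alpha subunits, had 0 reads in Spib_KO and 674 in WT. Its WT level was 214 times the same floor, and the interval of its log2 ratio ended at -7.44. Rgs19, another RGS gene, had 49 reads in Spib_KO and 591 in WT, a log2 ratio of -3.51 (-3.97 to -3.10). Prkcb, a protein kinase C gene activated by diacylglycerol, had 42 and 542 reads, a ratio of -3.61 (-4.11 to -3.17). Pde4d, a phosphodiesterase that breaks down cyclic AMP, had 1575 and 7337 reads, a ratio of -2.15 (-2.23 to -2.07). Rgs14, Rgs19 and Prkcb are known from leukocytes too, whose marker levels are given above, and the part of those cells was not tested.

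Of 16 genes of calcium release and stores in the table besides the members, 11 were measured and 1 was lower, with a median of -0.19. It was Atp2b2, a calcium pump of the plasma membrane, with 235 reads in Spib_KO and 904 in WT and a log2 ratio of -1.87 (-2.09 to -1.67). Of 18 genes listed for steps after the channel, 10 were measured, 2 were higher and 0 lower, with a median of 0.12. Slc18a3, the vesicular transporter of acetylcholine, had 185 reads in Spib_KO and 72 in WT, a log2 ratio of 1.42 (1.03 to 1.84). Its gene lies within Chat on the same strand, with 0 exonic bases shared in GENCODE M21, and Chat had a ratio of 0.01. Syt1, a calcium sensor of vesicle fusion, had 106 and 38 reads, a ratio of 1.54 with its lower bound just past the threshold.

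**Figure D5:**
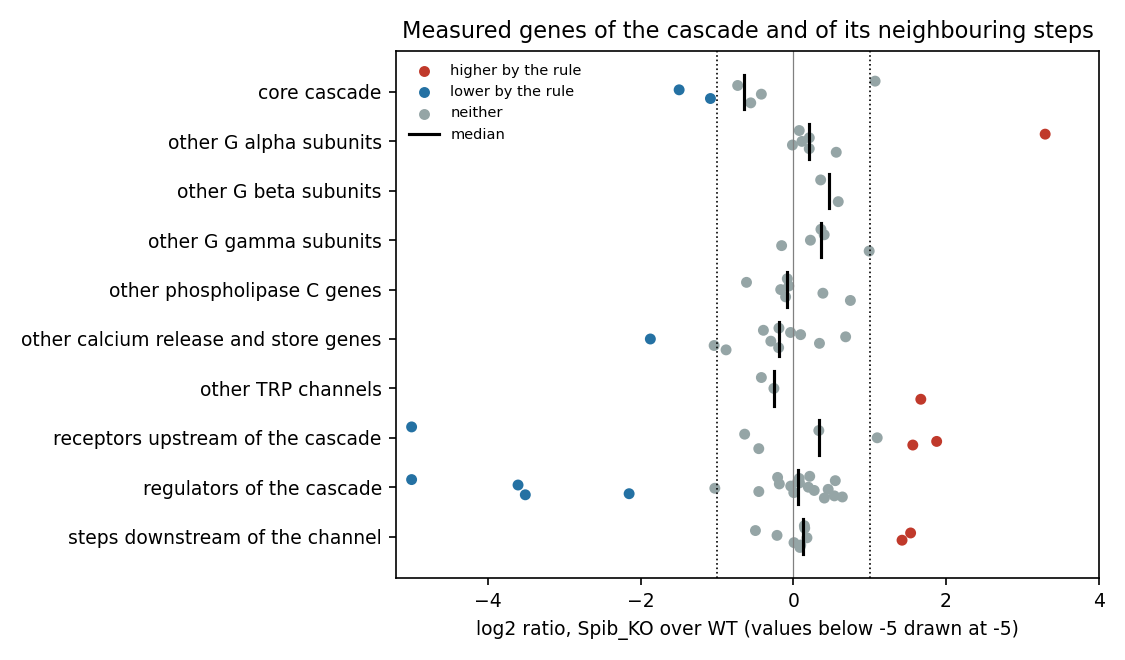
Log2 ratio of Spib_KO over WT for each measured gene of the core and of 9 neighbouring lists, with values below -5 drawn at -5, black bars at the medians and dotted lines at 2-fold. Of 73 measured genes outside the core 6 were called higher (red) and 6 lower (blue), and the core has the lowest median, -0.64.

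The other cell types that a sort of this kind could hold were present at unequal levels. Over all measured genes 2.18% were called lower and 2.33% higher. Of 7 Paneth cell markers measured 6 were called lower, with sums of 977 CPM in Spib_KO and 2481 CPM in WT, while Ang4 had a log2 ratio of 0.75. Of these 7 markers 1 passed the minimum through WT alone, so its call says nothing beyond its level. Of 8 goblet cell markers 3 were called lower, with sums of 1391 and 2232 CPM, while Clca1 had a log2 ratio of 0.68. The 9 enteroendocrine markers summed to 44.4 CPM in Spib_KO and 141 CPM in WT, with 8 lower and Gip higher in Spib_KO, and Gcg and Tph1 had 0 reads in Spib_KO. Of the 7 that counted as measured 5 passed through WT alone and 1 through Spib_KO alone, so their calls are not counted here. None of the 9 enterocyte markers was called, and their median log2 ratio was -0.34, with 6 lower and 3 higher in Spib_KO. Their sum was 16604 CPM in Spib_KO and 14480 CPM in WT because of Fabp1, at 10611 and 6968 CPM, and without it the other 8 summed to 5993 and 7512 CPM. The 6 markers of stem and progenitor cells summed to 1091 and 1322 CPM, with 0 called. Eosinophil and mast cell markers summed to at most 3.83 CPM. Of 30 tuft identity genes, a list that holds none of the 7 members, 1 was higher and 2 lower, Spib among them, and the median was 0.06. The part of any of these in the values of the members was not tested.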

How the data were processed

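Bulk RNA of sorted tuft cells was sequenced, 1 Spib_KO and 1 WT library. Per the labels' protocols, TRIzol-extracted RNA was amplified as in SMART-Seq2 and libraries were made with a transposase, a chemistry that keeps no strand. Per the submitters' processing notes, HISAT and Bowtie2 2.2.3 were used with mm10; the counting program is not given in the sources used here. The authors deposited 3 values per gene and library: a read count, an FPKM and a TPM. The deposited counts are expected counts, since 18.6% of values in Spib_KO and 19.0% in WT are not whole, and were rounded; those of the 7 members were whole.

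TMM factors (edgeR 4.0.16, R 4.3.3) gave effective library totals of 17161039 for Spib_KO and 17996059 for WT. Log2 ratios carry a prior count of 0.5 and an exact conditional binomial (Clopper-Pearson) 95% interval, levels an exact Poisson interval. With no molecular identifiers named, reads may be PCR copies, so intervals and floors cover counting error only. The implied length is proportional to read count over library total and FPKM, in bases. The procedure was tested on simulated Poisson counts, the model that its intervals assume. That simulation held no variation between animals and no PCR copies, so it checks the code alone.

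The members, gene lists, size rule and alternatives were chosen with earlier results of these data known. Genes named beside the members were Spib, Epcam, Siglecf, and up to 4 called genes per list, or the 2 most abundant where none was called. Pou2f3, Itpr1, Trpm4, Gnai2, overlapping genes, markers and genes of the closing section were picked after their values were seen. Positions are from RefSeq on GRCm38.p6, the assembly behind mm10, and transcripts and overlaps from GENCODE M21 on that assembly. Python 3.11.15 was used with scipy 1.17.1, numpy 2.4.6, pandas 2.3.3 and matplotlib 3.10.9.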

Additional observations from a re-analysis of the deposited data

How the results depend on the processing

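No paired analysis was possible because each genotype has 1 library. Plcb2 and Itpr2 were the 2 members called lower under all 11 alternatives run for that count. The count of members called higher was 1 by the point estimate and 1 with the bound at 1.5-fold, Gng13 in each, and 1 without the filter on low counts, Gnb3. A prior count of 5, or scaling by DESeq2 size factors, by the upper quartile or by total counts, left all 7 ratios within their counting intervals. Scaling on the tuft identity list shifted the median of all genes by -0.12 and gave 0.95 for Gng13, -1.21 for Plcb2, -1.62 for Itpr2, -0.54 for Itpr3 and -0.68 for Trpm5. The shift follows from the scaling itself. Of the summed level of that list, Krt18 supplied 31923 of 57465 CPM in Spib_KO and 27027 of 52729 CPM in WT. Without Krt18 the list summed to 25542 CPM in Spib_KO and 25703 CPM in WT, and scaling without it was not run. As log2(value + 1), TPM and FPKM gave -1.54 and -1.54 for Plcb2, -1.66 and -1.65 for Itpr2, and 1.25 and 1.09 for Gnb3, where the added 1 exceeds the WT value. As log2(TPM + 0.1), Plcb2 was -1.55 and Itpr2 -1.68. For Plcb2 and Itpr2 the difference from counts is that of the implied lengths. No ratio of a member changed sign under any of these settings. Over all genes, 250 were called higher and 233 lower; removing the filter gave 595 and 716, a minimum of 20 CPM gave 101 and 106, and the point estimate gave 425 and 419, each following from how many genes the rule admits, and with FPKM 165 were higher, the cause of which was not tested. Depth limits Gnb3 most, with 38 and 3 reads.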

Other observations

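Plcb2 was not the only tuft cell gene whose counts and TPM parted. Of 28 tuft identity genes with 200 reads or more in each library, Dclk1, a kinase gene used as a tuft marker, had 36043 reads in Spib_KO and 42637 in WT, a log2 ratio of -0.17 by counts and -0.71 by TPM. Its implied length was 3248 bases in Spib_KO and 2257 bases in WT. Hmx3, a homeobox gene, had ratios of -0.13 by counts and -0.56 by TPM, with implied lengths of 2826 and 2100 bases. In Il17rb, the receptor gene for interleukin 25, the length went the other way, 1521 bases in Spib_KO and 1731 bases in WT, with ratios of -0.45 by counts and -0.27 by TPM. Over all 8400 genes with enough reads, 30 had a length ratio as high as that of Plcb2 or higher. These genes were picked after their values were seen, and the transcripts behind the lengths were not measured.

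Several genes next to the core lay near the 2-fold line without a call. The succinate receptor gene Sucnr1 had 1297 reads in Spib_KO and 635 in WT, a log2 ratio of 1.10 (0.96 to 1.24). The calcium channel gene Orai2 had 547 and 1178 reads, a ratio of -1.04 (-1.19 to -0.89), and the diacylglycerol kinase gene Dgkz 1729 and 3699 reads, a ratio of -1.03 (-1.11 to -0.95). Lrmp, which encodes a membrane protein of the endoplasmic reticulum that binds IP3 receptors, was at 1433 TPM in Spib_KO and 1627 TPM in WT, above every member of the core in each library.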
